A study of Mus musculus with 30 samples.

Results

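Zic1, Zic2 and Zic5 are 3 of the mouse Zic genes, and they were followed here through the neural differentiation of mouse embryonic stem (ES) cells on Affymetrix U74 version 2 chips. Every probe set that names 1 of them alone was taken, which gave 5 of the 36701 probe sets on the 3 chips: 2 for Zic1 (104169_at on chip A and 166858_at on chip C), 2 for Zic2 (98843_at and 98844_at, both on chip A) and 1 for Zic5 (116403_at on chip B). The cells were a Sox1-GFP line derived from strain 129, in which GFP is made where the early neural gene Sox1 is active. They were grown as floating aggregates in serum-free medium (SFEB culture) and sorted by flow cytometry. There were 10 samples in 8 groups. ES cells sorted as E-cadherin-positive had 3 samples (ES 1 to ES 3). The other 7 groups had 1 sample each: aggregates of day 1 with no sort label, the E-cadherin-positive and the E-cadherin-negative cells of day 2, the Sox1-negative cells of day 3, and Sox1-positive cells of days 3, 4 and 5. All samples carry the reporter and no untagged line was analysed here. The labels do not say whether the ES samples came from separate cultures, so the p-values rest on a spread that may be technical. A lower signal in a sorted population can mean fewer cells with the transcript or less of it per cell, and the chips cannot tell these apart.

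Zic genes encode zinc finger transcription factors with a block of C2H2 fingers related to those of the Gli proteins, the transcription factors of hedgehog signalling. Zic1 is known from the neural plate, the dorsal neural tube, the neural plate border and the cerebellum. Zic2 is known from the epiblast and the early neural plate, and loss of its function in people causes holoprosencephaly, a failure of the forebrain to divide. Zic5 is known from the dorsal neural tube and neural crest and is also transcribed in pluripotent cells.

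These genes lie in pairs. In the RefSeq gene table of GRCm38.p6, used here for names and neighbours, Zic5 and Zic2 were next to each other among protein-coding genes on chromosome 14, and Zic1 and Zic4 were next to each other on chromosome 9. The 250 bases before the start of Zic1 (chr9:91365769-91366018) and of Zic5 (chr14:122465659-122465908), both on the minus strand of GRCm38.p6 and given 5′ to 3′, are shown because these genes moved in opposite directions. RefSeq's promoter table gave 2 of the 3 members, and Zic2 is named without a sequence. Capitals mark the GC box GGGCGG, the CCAAT box and the E-box CACGTG, on either strand.
Zic1: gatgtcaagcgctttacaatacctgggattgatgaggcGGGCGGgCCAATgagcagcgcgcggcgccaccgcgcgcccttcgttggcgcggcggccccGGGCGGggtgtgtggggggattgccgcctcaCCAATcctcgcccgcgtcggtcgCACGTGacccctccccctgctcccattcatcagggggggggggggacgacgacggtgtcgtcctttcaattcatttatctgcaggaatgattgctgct
Zic5: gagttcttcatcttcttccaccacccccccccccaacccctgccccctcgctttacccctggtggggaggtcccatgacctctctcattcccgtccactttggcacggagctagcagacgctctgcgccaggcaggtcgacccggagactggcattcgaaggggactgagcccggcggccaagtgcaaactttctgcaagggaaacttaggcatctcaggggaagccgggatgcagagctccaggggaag
The Zic1 stretch held 27 CG dinucleotides, more than 91.4% of the 32851 windows of that length in the table, and the Zic5 stretch held 11, more than 64.4% of them (the median was 6). The Zic1 stretch had 2 matches to the GC box, found in 32.7% of the windows, 2 to the CCAAT box (33.8%) and 1 to the E-box (6.02%). The Zic5 stretch had 0 matches to these. Neither stretch held the letters TATAAA (12.4%), CAGCAGG, a core of the Zic binding motif (8.44%), or CATTGT, a SOX core (10.7%), on either strand. A match is a description of the letters and is not evidence of binding.

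The sort labels were set against their own transcripts. Sox1 (92342_at) had intensities of 138 to 173 in the ES samples, 308, 310 and 252 in the Sox1-positive samples of days 3, 4 and 5, and 241 in the day 3 Sox1-negative sample. The day 2 E-cadherin-positive and E-cadherin-negative samples had 253 and 251, so the Sox1 transcript in these samples and in Sox1-negative cells was near that of day 5 Sox1-positive cells. Cdh1 (98140_at), the gene of E-cadherin, had 572 in the day 2 E-cadherin-positive and 565 in the E-cadherin-negative sample, so its transcript did not separate that sort. Pou5f1 (103075_at), which encodes Oct4 of pluripotent cells, had 11905 and 4024 in that order. Sox1 was higher in Sox1-positive than in ES cells (log2 difference 0.83, limma adjusted p 0.0229) and Pou5f1 fell by 2.26 (0.0351), while Cdh1 had -0.40 (0.282). RNA integrity was read from the actin controls on chip A, as signal at the 3′ end over signal at the 5′ end. This ratio was highest in ES 3 (1.70), day 5 (1.34) and day 2 E-cadherin-negative cells (1.33), and the other samples had 0.939 to 1.15.

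Zic1 was low in ES cells and high in Sox1-positive cells. Probe set 104169_at had intensities of 65.7, 74.4 and 127 in ES 1, ES 2 and ES 3, and of 607, 822 and 454 in the Sox1-positive samples of days 3, 4 and 5. The lowest Sox1-positive value lay above the highest ES value. ES 1 and ES 2 lay below the filter level of chip A (78.6), whereas ES 3 and the ES mean lay above it. The means were 88.9 ± 33.0 (SD, n = 3) and 628 ± 185 (n = 3), a ratio of 7.06. The log2 difference of intensity plus 16, Sox1-positive minus ES, was 2.62 ± 0.287 (SE) with a 95% interval of 1.96 to 3.28 and a limma adjusted p of 0.00172. The SD of the Sox1-positive group also holds the change between its days.

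The probe set of Zic1 on chip C gave the same direction from a lower base. Its intensities were 16.3, 18.9 and 17.3 in the ES samples and 209, 387 and 251 on days 3, 4 and 5. The means were 17.5 ± 1.31 (SD, n = 3) and 282 ± 93.1 (n = 3), and the log2 difference was 3.11, or 3.89 with a pseudocount of 1 and 2.05 with 64. The ES signals lay below the filter on low values, which this probe set passed only through the differentiated samples where it is high, so its differences are given as a description, with no test.

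Zic5 moved the other way. Probe set 116403_at had intensities of 1137, 1521 and 1823 in the ES samples and of 529, 533 and 357 in the Sox1-positive samples of days 3, 4 and 5. All 3 Sox1-positive values lay below the lowest ES value. The means were 1494 ± 344 (SD, n = 3) and 473 ± 101 (n = 3), a ratio of 3.16, and the log2 difference was -1.62 ± 0.254 (SE) with a 95% interval of -2.21 to -1.03 and a limma adjusted p of 0.00759. Leaving out both ES 3 and day 5, which had the highest actin ratios, gave -1.28 with a limma adjusted p of 0.0539, which did not pass (a setting chosen after seeing the data).

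Zic2 did not pass in either probe set. The intensities of 98843_at were 242, 133 and 137 in the ES samples and 268, 255 and 97.7 on days 3, 4 and 5 of the Sox1-positive cells, so the groups overlapped and day 5 lay below every ES sample. The log2 difference was 0.19 ± 0.383 (SE) with a 95% interval of -0.69 to 1.07 and a limma adjusted p of 0.822. Probe set 98844_at had 162, 153 and 158 in the ES samples and 183, 144 and 169 on days 3, 4 and 5. It gave 0.06 ± 0.169 (SE), with an interval of -0.33 to 0.44 and a limma adjusted p of 0.888. The intervals thus include no difference, and 98843_at alone leaves room for a rise of 1.07 on the log2 scale. Zic2 and Zic5 are neighbours on chromosome 14, and the difference between them was not tested.

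All 5 member probe sets passed the filter, 166858_at only as just described. An adjusted p under 0.05 was reached by 10.5% of the 25690 probe sets tested, 5.71% being higher, as Zic1 104169_at was, and 4.84% lower, as Zic5 was. The groups did not overlap for 30.5% of all probe sets tested, nor for those of Zic1 and Zic5. The members were chosen with these directions known, so the calls describe the genes and lend no weight of their own.

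**Figure D1:**
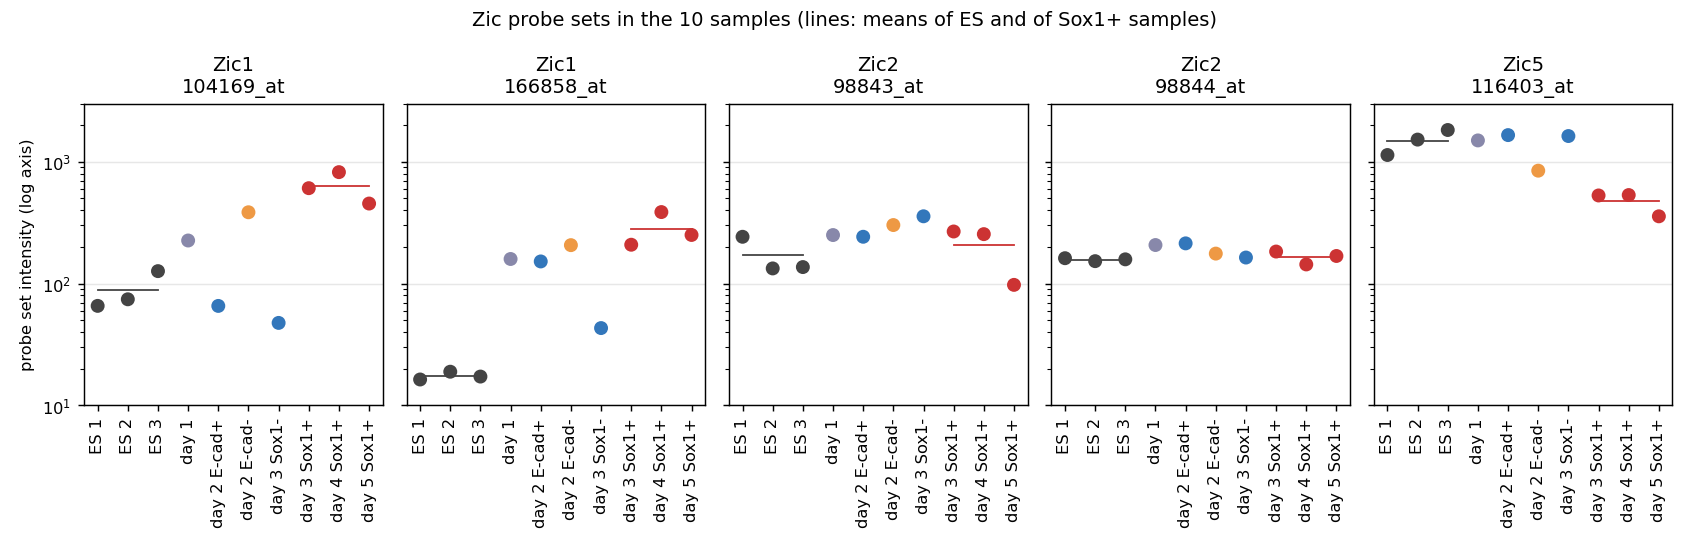
Intensity (log axis) of each Zic probe set in the 10 samples, 1 point per sample, with lines at the means of the 3 ES and the 3 Sox1-positive samples. Zic1 sits at 607, 822 and 454 in Sox1-positive cells (104169_at) against 65.7 to 127 in ES cells. Zic5 falls from 1137 or more to 533 or less. The Zic2 points of ES and Sox1-positive cells overlap.

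Each aggregate sample was then set against the ES samples in a fit of all 8 groups, to place the changes in time and between sorts. All these differences share the ES samples and take their spread from them alone. On day 1, Zic1 104169_at had an intensity of 226 and a log2 difference of 1.25 ± 0.375 (SE), with a limma adjusted p of 0.655. The chip C probe set had 159 on day 1, and its log2 difference was 2.39. Both values lay above all 3 ES samples, but 104169_at did not pass. Zic5 had 1498 on day 1, inside the ES range, and a log2 difference of 0.03. Zic2 98843_at and 98844_at had 250 and 207 on day 1, above all 3 ES samples, with log2 differences of 0.56 and 0.36. Neither passed.

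On day 2 the sorts differed most in 1 of the probe sets of Zic1. In E-cadherin-negative cells 104169_at had an intensity of 385, a log2 difference from ES of 1.98 (limma adjusted p 0.121), and 166858_at had 207, a difference of 2.73. In E-cadherin-positive cells 104169_at had 65.6, level with the lowest ES sample, whereas 166858_at had 152, a log2 difference of 2.33. The probe sets of Zic1 therefore disagree about that sample. Zic5 had 846 in E-cadherin-negative cells, below every ES sample (log2 difference -0.78, limma adjusted p 0.411), and 1656 in E-cadherin-positive cells, inside the ES range. Zic2 98843_at had 303 in E-cadherin-negative and 242 in E-cadherin-positive cells, and 98844_at had 176 and 214. Each lay above every ES sample, 98843_at in E-cadherin-positive cells only just (242.45 against 242.38). None of the member probe sets passed in a day 2 sample. The fit called 7 probe sets (0.0272%) in E-cadherin-negative cells and 0 in E-cadherin-positive cells, in day 1 and in day 3 Sox1-negative cells, where 2087, 1625 and 1709 had an unadjusted p under 0.05.

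On day 3 Zic1 104169_at passed in the Sox1-positive sample and not in the Sox1-negative one, a difference that was not tested. In the Sox1-positive sample 104169_at differed from ES by 2.62 (limma adjusted p 0.0314), where 1.47% of all probe sets were called, and 166858_at by 2.75, with no test. In the Sox1-negative sample 104169_at had an intensity of 47.6, below every ES sample, and 166858_at had 43.2, above every ES sample (limma adjusted p 0.824 for 104169_at). Zic5 had 1627 in the Sox1-negative sample, inside the ES range, and 529 in the Sox1-positive sample, -1.44 from ES on the log2 scale with an adjusted p of 0.129 in limma. Zic2 98843_at reached its highest intensity of the series in the Sox1-negative sample, 357, a log2 difference of 1.05 with a limma adjusted p of 0.682.

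Zic1 was highest on day 4, with log2 differences from ES of 3.04 (limma adjusted p 0.0200) for 104169_at and 3.59 for 166858_at, where 1.87% of all probe sets were called. On day 5 they were 2.21 (limma adjusted p 0.0292) and 2.99, where 4.22% were called. Zic5 was lowest on day 5, with a log2 difference of -1.99 and a limma adjusted p of 0.0422, after -1.43 on day 4 (0.123). Zic2 98843_at had -0.67 on day 5 (0.419), and 98844_at had 0.09 (0.902). The calls of single days were fragile: each of the 3 calls of 104169_at and the Zic5 call ended without ES 2, and each also ended with no filter. The day 3 call of 104169_at ended too after quantile normalization and with a pseudocount of 1. The Zic5 call ended too without ES 3 and with a pseudocount of 1.

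**Figure D2:**
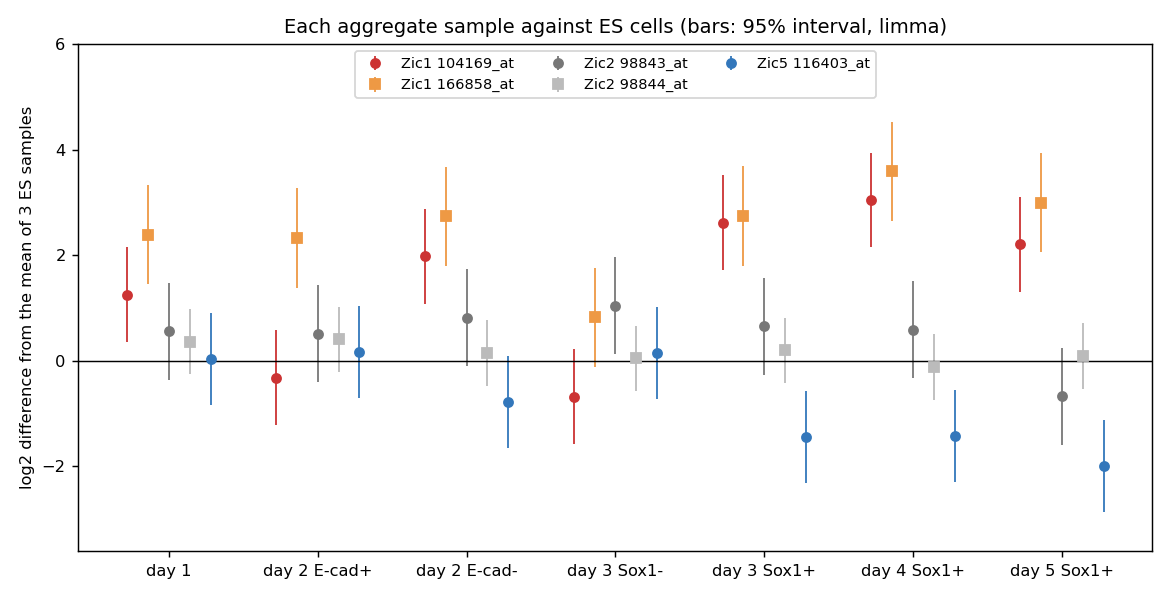
Log2 difference of each aggregate sample from the mean of the 3 ES samples for the 5 Zic probe sets, with 95% intervals from the limma fit of 8 groups. Zic1 104169_at reaches 3.04 on day 4 and is below 0 in the day 2 E-cadherin-positive and day 3 Sox1-negative samples. Zic5 is near 0 in those samples and at -1.99 on day 5. For the Zic1 probe set on chip C the differences and intervals are a description, with no test.

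In order of intensity, Zic1 104169_at ran from day 3 Sox1-negative through day 2 E-cadherin-positive, the ES mean, day 1, day 2 E-cadherin-negative, day 5, day 3 Sox1-positive and day 4. Of the 7 steps between neighbours in that order, 1 was larger than the range of the 3 ES samples (0.80 on the log2 scale), the step from the ES mean to day 1. Zic5 ran from day 5 through day 3 Sox1-positive, day 4, day 2 E-cadherin-negative, the ES mean, day 1, day 3 Sox1-negative and day 2 E-cadherin-positive. Of its 7 steps, 1 was larger than the ES range (0.67), the step of 0.78 between day 2 E-cadherin-negative cells and the ES mean. For Zic2 98843_at, which ran from day 5 to day 3 Sox1-negative cells, 0 of 7 steps exceeded the ES range of 0.79. The chip C probe set of Zic1 and 98844_at of Zic2 had narrow ES ranges (0.11 and 0.07), which 5 and 2 of their 7 steps exceeded.

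The sorts within a day had 1 sample on a side, so their differences carry no test. On day 2, E-cadherin-negative minus E-cadherin-positive, Zic1 104169_at differed by 2.30 on the scale of log2(intensity + 16), 166858_at by 0.41 and Zic5 by -0.96. Of the 5 member probe sets 1 reached a difference of 1, as did 13.6% of all probe sets tested. On day 3, Sox1-positive minus Sox1-negative, 104169_at differed by 3.29, 166858_at by 1.92 and Zic5 by -1.59 on that scale, and the Sox1-negative signals of both Zic1 probe sets lay below the filter levels of their chips (78.6 and 102). Here 3 of the 5 reached a difference of 1, against 15.4% of all. Between ES samples 8.19% to 13.9% of probe sets differed that much, so such a difference in a single pair is common. The Zic2 probe sets pointed opposite ways in each: 0.30 and -0.26 on day 2, and -0.39 and 0.15 on day 3 (98843_at and 98844_at).

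**Figure D3:**
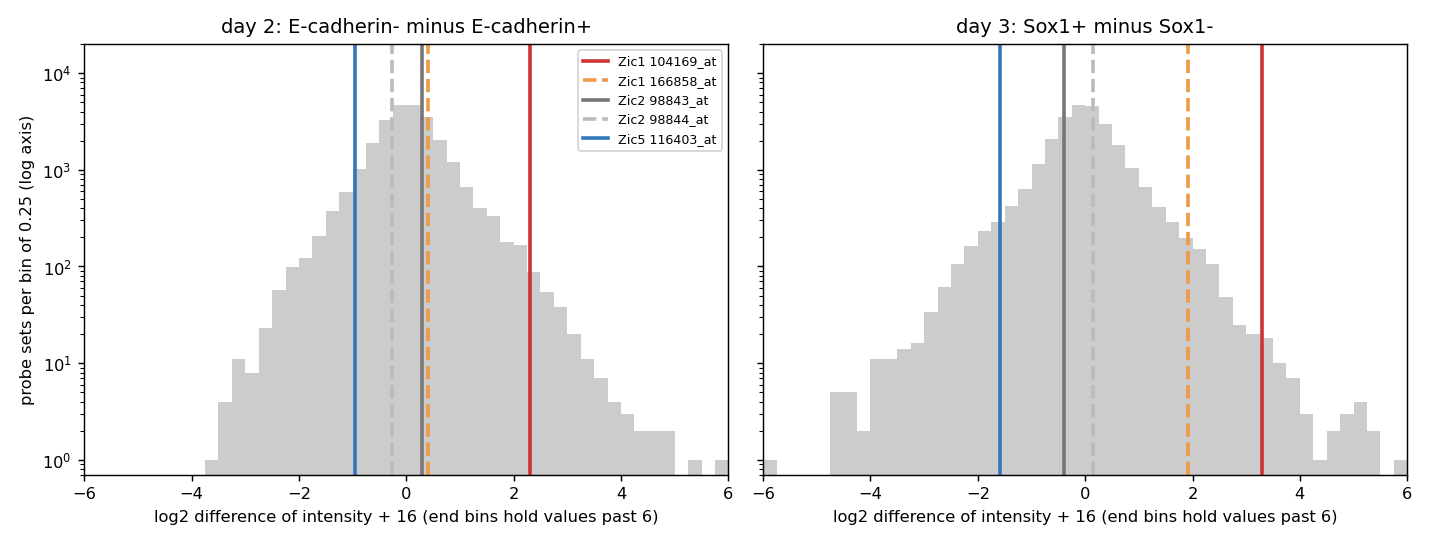
Number of probe sets (log axis) by log2 difference between the sorts of day 2 (left) and of day 3 (right), with lines at the 5 Zic probe sets. On day 3 the Zic1 lines lie at 3.29 and 1.92 and the Zic5 line at -1.59, with the Zic2 lines near 0.

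Zic1 and Zic5 were chosen as genes that move in opposite directions, so the sign of their correlation restates that choice. Over the 10 samples, which share scaling, Pearson's r between log2 values was -0.83 for Zic1 104169_at and Zic5 and -0.69 for Zic1 166858_at and Zic5. The probe sets of Zic1 had an r of 0.81 with each other. Those of Zic2 had 0.26, and with Zic5 they had 0.18 and 0.21. With Pou5f1 the r was 0.91 for Zic5, -0.75 for Zic1 104169_at and 0.40 for Zic2 98843_at.

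The genes whose pattern over the 10 samples was most like that of Zic1, by Pearson's r among 12940 other genes, were Hmga2 (99058_at, 0.98), a chromatin architectural factor of growing embryonic cells, the cadherin gene Cdh6 (101730_at, 0.97), the retinoic acid-binding protein gene Crabp1 (98108_at, 0.97), Ndnf (166047_r_at, 0.96), a secreted neurotrophic factor, and Samd14 (106228_at, 0.96). Hmga2 had intensities of 201 to 287 in ES cells, 160 in day 2 E-cadherin-positive and 181 in day 3 Sox1-negative cells, 822 in day 2 E-cadherin-negative cells and 2070, 2657 and 1634 on days 3, 4 and 5. Like Zic1 104169_at it was highest on day 4 and below the lowest ES sample in day 2 E-cadherin-positive and day 3 Sox1-negative cells. These genes were picked for a pattern that is high in Sox1-positive cells, so no test between the groups is given for them.

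For Zic5 they were Smim40 (166802_f_at), L1td1 (104990_at), an RNA-binding protein gene of ES cells, and Larp4 (109084_at), each with an r of 0.98, and Zfp987 (166882_f_at) and Gcnt2 (165626_f_at), each with 0.97. Probe sets ending in f_at can bind several related transcripts, so those 3 names are uncertain. L1td1 had 4471 to 5630 in ES cells, 1658 in day 2 E-cadherin-negative cells and 708, 489 and 248 on days 3, 4 and 5. Here too the choice sets the direction, and no test is given. The genes nearest to Zic2 98843_at were Guca1a (103038_at, 0.96), Wbp2 (92863_at, 0.94), the glutathione reductase gene Gsr (160646_at, 0.93), the mitochondrial malic enzyme gene Me2 (112288_at, 0.93) and Ece1 (116065_at, 0.92). By rank correlation 1 of the 5 genes was again among the closest 5 for each member.

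**Figure D4:**
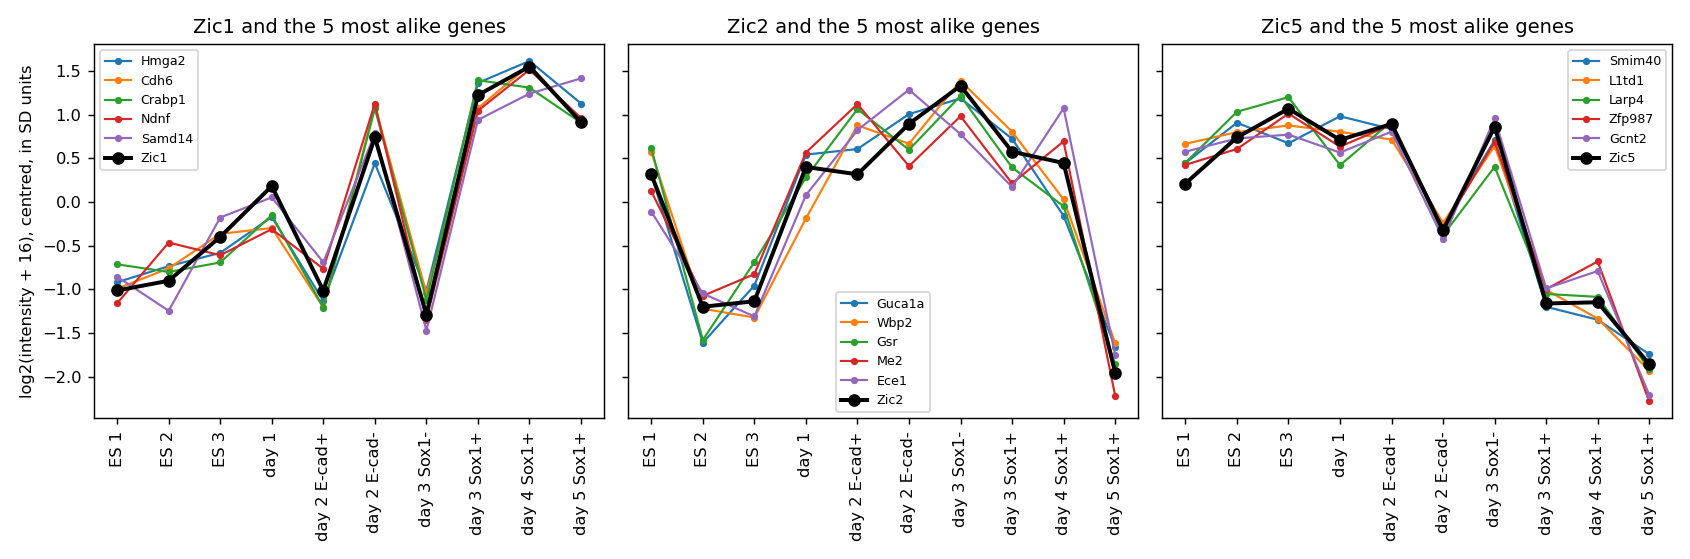
Log2(intensity + 16), centred and in SD units, over the 10 samples for each member (black) and the 5 genes with the highest Pearson's r. Genes near Zic1 peak in Sox1-positive cells, genes near Zic5 drop there, and genes near Zic2 are low in ES 2, ES 3 and day 5.

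Zic4 and the Gli genes had no call in the main setting. Zic4, the neighbour of Zic1, had 3 probe sets, and 2 of them (100284_at and 105791_at) lay below the filter, with intensities of 6.55 to 73.9 and 23.4 to 112. The third, 108899_at, had 239, 201 and 112 in the ES samples and 88.3, 161 and 121 on days 3, 4 and 5 of the Sox1-positive cells, a log2 difference of -0.50 with a limma adjusted p of 0.388. Of the 6 genes tested of 8 listed from the Zic and Gli family, 0 rose and 0 fell, with a median log2 difference of 0.18, against 828 that rose and 798 that fell of 12941 genes tested and a median of -0.01. Gli3 (137022_at), the main repressor of the hedgehog pathway, had a log2 difference of 1.37 with a limma adjusted p of 0.0569. Gli1, Gli2, Glis2 and Glis3 had 0.18, 0.19, -0.25 and 0.45 (limma adjusted p 0.896, 0.795, 0.492 and 0.302). Gli1 and Gli2 were not level between days, however. Gli1 (94097_at) had 555 on day 5 against 84.0 to 176 in every other sample. Gli2 (166589_at) had 1405 on day 5 against 1645 to 3009 in every other sample. In 4 of the alternatives (quantile normalization, a pseudocount of 64, the filter at the 60th percentile and the mean-variance trend) 1 gene of the family rose.

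Of 6 genes tested among 8 known as partners or targets of Zic proteins, 1 rose and 1 fell. Ephb1 (113858_at), a receptor of axon guidance that Zic2 controls in the retina, had a log2 change of 1.07 (limma adjusted p 0.0159). Atoh1 (168404_at), a proneural gene that Zic1 represses, fell by 1.98 on the log2 scale. Its Sox1-positive mean, 67.6, lay below the filter level of chip C (102), so its fall is a description. The calls of Ephb1 and Atoh1 ended in 4 of 16 and 10 of 15 settings (highest limma adjusted p 0.101 and 0.208), both without ES 2, ES 3 or ES 3 and day 5 together. The Zic-binding inhibitor gene Mdfi, Apoe, Ccnd1 and Pax3 had 0.41, -1.10, 0.63 and 0.62 and did not pass (0.161, 0.155, 0.385 and 0.586). Of 9 dorsal neural tube and plate border genes tested, 15 being listed, Atoh1 alone passed, given as a description, and the median was -0.01. Without day 3, 1 of them rose and 0 fell. Thus Wnt1, Msx1 and Pax3, dorsal genes of the tissue where Zic1 is known, did not pass beside Zic1 (log2 differences 0.63, -0.08 and 0.62, limma adjusted p 0.111, 0.920 and 0.586). Pax3 was not level, however. Its intensities were 76.3 to 119 in ES cells and 40.5, 341 and 211 on days 3, 4 and 5, above every ES sample on days 4 and 5.

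Early neural plate genes were mostly higher in Sox1-positive cells, as Zic1 was. Of 17 tested, 10 rose, 0 fell and 7 did not pass, with a median log2 difference of 1.56. The largest were the nuclear receptor gene Nr2f1 (102715_at, 5.59) and the SOX gene Sox11 (130532_at, 3.73, limma adjusted p 0.0368). The ES signals of Nr2f1, 8.39 to 39.2, lay below the filter level of chip A (78.6). It passed only through the samples where it is high, so its difference is a description, though the 10 that rose include it. The counts were 6 without ES 2, without day 4 and without ES 3 and day 5 together, and the call of Sox11 ended in 7 of 16 settings (highest limma adjusted p 0.119), including those without ES 2, day 3, day 4 or day 5. The summed intensity of the 17 genes ran from 12814 to 17218 in ES cells and from 40368 to 62092 in Sox1-positive cells. Of these sums Sox11 gave 402, 2916 and 4525 in ES 1, ES 2 and ES 3, which widens the ES range. It gave 15250, 27336 and 31148 on days 3, 4 and 5, and 1612 in day 3 Sox1-negative cells. The sum was 34782 in day 2 E-cadherin-negative cells. In the day 1, day 2 E-cadherin-positive and day 3 Sox1-negative samples the sum was 14415 to 14861, inside the ES range with Sox11 included. On day 1 the probe sets of Zic1 and of Zic2 lay above all ES samples. Among genes of the list, Sox3 did so too (893 against 611 to 764). Sox11 (2601) and Nr2f1 (12.5) lay inside their ES ranges that day, and Nes (417) lay below its own. Of 6 anterior neural genes tested of 16 listed, Fezf2 (92229_at, 0.97) rose (limma adjusted p 0.0449), a call that ended in 10 of 15 settings, including those that left out any 1 of the ES samples, day 4 or day 5 (limma adjusted p up to 0.146). Of 9 neuronal genes 3 rose, and the largest rises were 2.75 for Nefm (117269_at), a neurofilament subunit, and 2.37 for Elavl4 (163986_at), which encodes a neuronal RNA-binding protein. The ES mean of Nefm, 107, lay below the filter level of chip B (117), so its rise is a description. Without any 1 of the ES samples 1 neuronal gene rose, and the call of Elavl4 ended (highest limma adjusted p 0.0775).

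Most pluripotency genes were lower in Sox1-positive cells, as Zic5 was. Of 19 tested, 15 fell, 0 rose and 4 did not pass, with a median log2 difference of -3.34, led by Esrrb (168508_at, -6.85) and Tbx3 (166427_f_at, -5.87), factors of the ES cell network. The Sox1-positive mean of Tbx3, 6.27, lay below the filter level of chip C (102), so its fall is a description. The count that fell was 11 without ES 2. The summed intensity was 72370 to 80048 in ES cells, 60933 to 67824 in the day 1, day 2 E-cadherin-positive and day 3 Sox1-negative samples, 28128 in day 2 E-cadherin-negative cells and 9746 to 19892 in Sox1-positive cells. In the day 1, day 2 E-cadherin-positive and day 3 Sox1-negative samples the sum lay below the ES range, whereas Zic5 lay inside its own. Of these sums Esrrb gave 10661 to 16886 in ES cells and 3996, 4243 and 5190 in those samples, in that order. Pou5f1 gave 6783, 11905 and 7075 in the same order, against 6836 to 8778 in ES cells. The part of the pluripotency genes in the Zic5 result was not tested. Of 11 primed epiblast genes, 4 fell, led by Utf1 (102220_at, -3.87) and the nodal co-receptor gene Tdgf1 (93002_r_at, -2.87). Utf1 and Tdgf1 were also counted among the pluripotency genes that fell. Foxd3, another of the 4, was also counted among the neural crest genes. The Sox1-positive mean of Tdgf1, 55.1, lay below the filter level of chip A (78.6), so its fall is a description. The 2 that rose were Cd24a (100600_at, 2.78) and Sox3 (103302_r_at, 2.62), which is also a neural plate gene. The median was -1.23. Without ES 2, 2 primed epiblast genes fell.

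Markers of other cell types gave few calls. Of 7 mesoderm and primitive streak genes, 11 endoderm genes and 6 fibroblast genes tested, 0 rose and 0 fell, except that 2 fibroblast genes fell without ES 1. Over all members on the chips, their summed intensities in Sox1-positive cells (1410 to 2079, 2059 to 3498 and 2052 to 2557) overlapped those in ES cells (1188 to 2040, 2246 to 2824 and 2210 to 5110). The defining mesoderm genes T and Mixl1 were named by no probe set. Among endoderm genes Foxa2 (93950_at) stood at 1315 on day 5 against 28.1 to 55.3 in the other 9 samples (limma adjusted p 0.345). Of 9 neural crest genes, Ednrb (163124_s_at, 5.78) rose and Erbb3 (96771_at, -2.66) and Foxd3 (92889_r_at, -1.23) fell. All ES signals of Ednrb lay below the filter level of chip B (117). It passed only through the samples where it is high, so its rise is a description. The Sox1-positive mean of Foxd3, 45.8, lay below the filter level of chip A (78.6), so its fall is a description. The call of Foxd3 ended without ES 2 and without ES 3 and day 5 together (highest limma adjusted p 0.0879). The median of the 9 was -0.21 and 2 were higher. The summed crest markers were 4048 to 5084 in ES cells and 5221 to 12524 in Sox1-positive cells, of which Ednrb gave 20.5 to 91.2 in ES cells and 2093, 3568 and 9061 on days 3, 4 and 5. Their part in the Zic1 result was not tested.

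**Figure D5:**
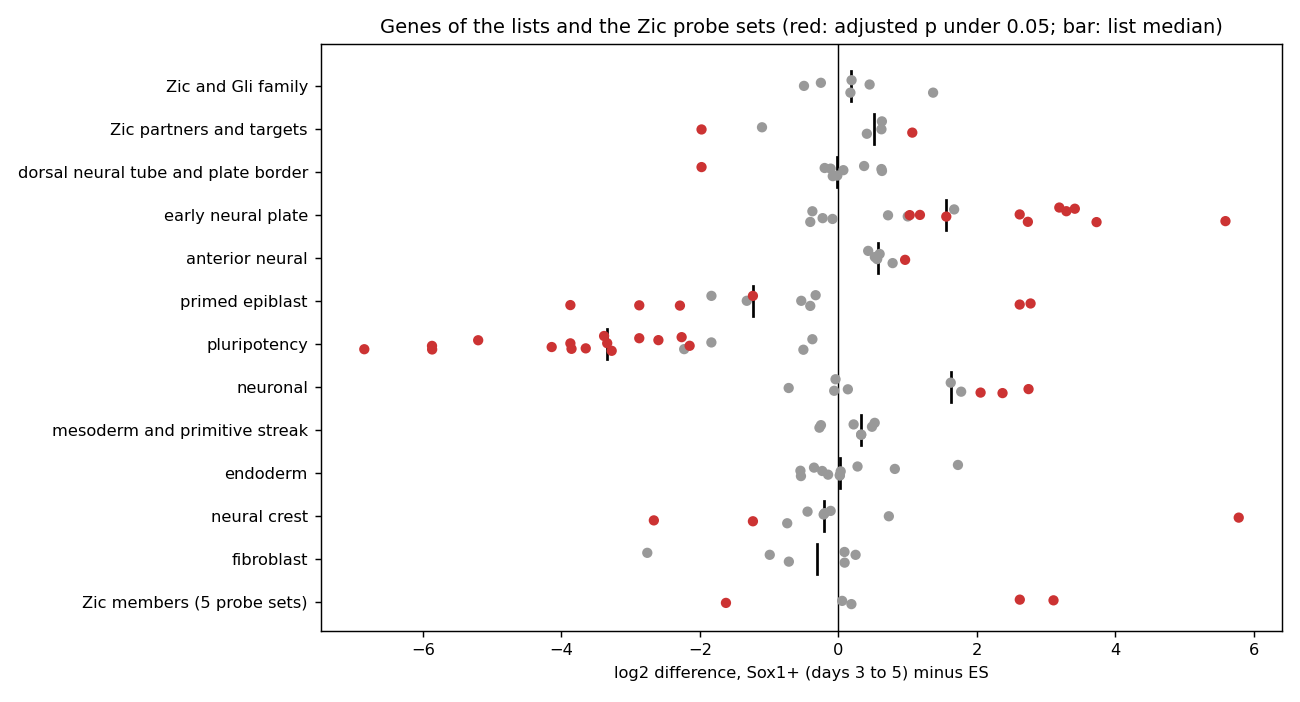
Log2 difference, Sox1-positive minus ES, of each gene tested in the 12 lists and of the 5 Zic probe sets, with red for an adjusted p under 0.05 and a bar at each list's median. The 2 Zic1 probe sets lie at 2.62 and 3.11 beside the early neural plate genes (median 1.56). Zic5 lies at -1.62 on the side of the pluripotency genes (median -3.34). The Zic1 probe set on chip C, at 3.11, is a description with no test, so its colour is not a call. The same holds for the listed genes whose calls are given as a description.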

How the data were processed

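Each of 30 arrays (10 samples on 3 chips) had a deposited linear intensity for every probe set. The software and background correction were not given in the sources used here. Intensities that the authors deposited were already scaled, with 2% trimmed means of 493 to 499 per array once 198 controls were removed. Medians were 177 to 278, and precision is limited by how few arrays there are. In the platform's annotation 29131 of the remaining 36701 probe sets named 1 gene, 724 named several and 6846 named none, and symbols were updated by Entrez ID to RefSeq names of GRCm38.p6.

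Values were analysed as log2 of intensity plus 16, which understates changes of low signals. A probe set was tested if its mean over the 10 samples was at or above its chip's 30th percentile, which kept 25690, the 5 members included. Such a mean can pass through 1 group alone. Nr2f1, Nefm and Ednrb had ES means below the filter. Atoh1, Foxd3, Tdgf1 and Tbx3 had Sox1-positive means below it. The calls of these genes stay in the counts of their lists and are given as a description. Sox1-positive samples of days 3 to 5 were compared with the ES samples in limma 3.58.1 (R 4.3.3), with Benjamini-Hochberg adjustment over the 3 chips together. A second fit of 8 groups compared each lone sample with ES. Sorts had no test. The code was tested on simulated data. For genes, the probe set with the highest mean log2 value was kept, for 12941 genes.

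The members always, Sox1, Cdh1 and Pou5f1, the 5 genes most like each member and the 2 largest called rises and falls of each of 12 lists (from general knowledge) were to be named. Other genes named were chosen after their values were seen. The members and lists were chosen with earlier results of these data known. Alternatives were quantile normalization, 75th percentile scaling, pseudocounts of 1 and 64, no filter or the 60th percentile, a mean-variance trend, adjustment within each chip, the mean over a gene's probe sets and leaving out each sample. Figures used matplotlib 3.10.9 in Python 3.11.15.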

Additional observations from a re-analysis of the deposited data

Results flagged for a closer look

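In 6 cases samples of 1 day or of 1 sort lay beyond the ES range in opposite directions. None of these differences was tested, as each side is 1 sample. Zic1 (104169_at) stood 1.98 above the ES mean on the log2 scale in day 2 E-cadherin-negative cells and had -0.32 in E-cadherin-positive cells, a difference of 2.30, where the low sample lay barely under the lowest ES sample (65.6 against 65.7). On day 3 it had 2.62 in Sox1-positive and -0.68 in Sox1-negative cells, a difference of 3.29. The other probe set of Zic1 lay above the ES range in all 4 of those samples.

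Zic2 (98843_at) had 0.65 on day 3 and 0.58 on day 4 of the Sox1-positive cells against -0.67 on day 5, differences of 1.32 and 1.25. The other Zic2 probe set (98844_at) had 0.20, -0.12 and 0.09 on those days, with differences of 0.32 between days 3 and 4 and -0.21 between days 4 and 5. The actin ratio on day 5 was 1.34, and its part in the Zic2 values was not tested.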

How the results depend on the processing

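Zic1 104169_at stayed called and higher under every alternative run for it, with log2 differences of 2.16 to 3.07. Those of 166858_at, which passed the filter only through the samples where it is high, were 2.05 to 3.89. Neither Zic1 nor Zic2 reached the filter at the 60th percentile. Zic5 kept its direction (-1.80 to -1.28) and was called in all but 1, the setting without ES 3 and day 5 together (-1.28). Averaging a gene's probe sets changed no call. Zic2 was never called: 98843_at ranged from -0.0417 to 0.62 when single samples were left out, and 98844_at from -0.0156 to 0.144, with -0.0193 after quantile normalization. The count of probe sets called, 2710, was 1233 (without ES 2) to 2162 (without ES 1) when single samples were left out, with 1681 without ES 3 and 1290 without day 4, and 1055 without ES 3 and day 5 together. Of 315 values for single samples against ES under an alternative, 25 lost a call, 3 gained one and 6 changed sign, all 6 of them uncalled. The 25 include values of 166858_at on days 3, 4 and 5, for which no test is given here, beside those of 104169_at and Zic5. After quantile normalization 98844_at had -0.0112 in day 2 E-cadherin-negative, -0.108 in day 3 Sox1-negative and -0.00588 in day 5 cells. Without 1 ES sample at a time Zic5 ranged from -0.152 to 0.185 on day 1, from -0.00821 to 0.329 in day 2 E-cadherin-positive and from -0.0335 to 0.304 in day 3 Sox1-negative cells. The causes were not tested. Of 40 values for the sorts 10 moved by more than the SD of the ES samples.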
